A study of Mus musculus with 18 samples.

Results

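The genes described here are 7 members of the cytochrome P450 family 4 that lie side by side in the mouse genome: *Cyp4a10*, *Cyp4a12a*, *Cyp4a12b*, *Cyp4a14*, *Cyp4a31*, *Cyp4a32*, and *Cyp4b1*. They are 7 of 78239 genes listed in each table of kidney read counts. The genes were chosen by name, with their levels in these libraries already known, so their differences between groups are given as descriptions without p-values, and counts of members called by a test describe them and are no independent evidence. RNA was sequenced from the kidneys of 18 outbred wild-type CD-1 mice, with 1 library per mouse. Dams were fed a low-protein (LP) diet with 8% protein or a normal-protein (NP) diet with 18% protein from mating until weaning, and all offspring were then fed the NP diet until 6 wk of age. Males comprised 5 from LP dams and 5 from NP dams, and females comprised 5 and 3. All of them had been injected with cationic ferritin, an agent that labels glomeruli, and the interval from the last injection to kidney collection was 90 min for males and 24 h for females. A piece of the left kidney was used, so the share of each nephron segment in a piece could differ between mice.

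CYP4A enzymes add a hydroxyl group to the far end, the omega carbon, of fatty acids. From arachidonic acid some of them make a hydroxyeicosatetraenoic acid that acts on renal vessels and on tubular salt transport. From other fatty acids, CYP4A enzymes start the path by which dicarboxylic acids are shortened in peroxisomes. *Cyp4a10* and *Cyp4a14* are known as targets of PPARα, the nuclear receptor that senses fatty acids. *Cyp4a12a* is known as an arachidonic acid hydroxylase that androgens raise in the male kidney, and *Cyp4b1* encodes a related enzyme that oxidizes fatty acids and foreign compounds. In the kidney these enzymes are found mainly in the proximal tubule.

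All 7 genes lie on chromosome 4 of GRCm39 within 348.8 kb. In order along the chromosome, *Cyp4a12a* (ENSMUSG00000066071.7) spans chr4:115156243-115190012 on the plus strand and *Cyp4a12b* (ENSMUSG00000078597.3) spans chr4:115268820-115296235 on the plus strand. *Cyp4a14* (ENSMUSG00000028715.3) follows on the minus strand at chr4:115343397-115353344, and *Cyp4a10* (ENSMUSG00000066072.14) on the plus strand at chr4:115375461-115390849. *Cyp4a31* (ENSMUSG00000028712.13) lies at chr4:115420818-115436212 and *Cyp4a32* (ENSMUSG00000063929.7) at chr4:115458134-115479704, both on the plus strand. *Cyp4b1* (ENSMUSG00000028713.18) closes the cluster on the minus strand at chr4:115476281-115504999, where it overlaps the 3' part of *Cyp4a32* by 3424 bp. Positions are those of the GENCODE vM39 annotation. The same stretch holds 9 other annotated genes, mostly pseudogenes, and 0 of them reached a mean of 10 counts.

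The coding sequences held 2 close groups. *Cyp4a12a* and *Cyp4a12b* were 98.49% identical over 1524 aligned bases. *Cyp4a10* was 96.59% identical to *Cyp4a31* and 97.93% identical to *Cyp4a32*. *Cyp4a14* was at most 77.76% identical to another member, namely *Cyp4a10*, and *Cyp4b1* at most 67.3%, namely *Cyp4a14*. Of all windows of 150 bases in the *Cyp4a12a* transcript, 25.6% were also found, without a mismatch, in a transcript of *Cyp4a12b*, and reads from such windows were not counted for either gene because only reads with a single match were counted. The share of shared windows was 25.9% for *Cyp4a12b*, 30.3% for *Cyp4a32*, 4.69% for *Cyp4a10*, 4.15% for *Cyp4a31*, 3.19% for *Cyp4a14*, and 0% for *Cyp4b1*. The read length is not known here, and windows of 100 bases gave larger shares: 35.9% for *Cyp4a12a*, 36.2% for *Cyp4a12b*, 49.3% for *Cyp4a32*, 15.6% for *Cyp4a10*, 8.12% for *Cyp4a31*, 5.20% for *Cyp4a14*, and 4.46% for *Cyp4b1*. For *Cyp4a32* most shared windows came from the overlap with *Cyp4b1*, where few reads were lost (counts given below). Those of *Cyp4a14* were shared with *Gm52676*, which overlaps it on the other strand. Counting each strand apart kept such reads and gave 83751 for *Cyp4a14* over 18 libraries, against 79516 in the column used. The levels of *Cyp4a12b* and *Cyp4a32*, which are low and rest on few reads, are the least certain.

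The sequence just upstream of the transcription start is printed below for 4 members. *Cyp4a12a* and *Cyp4a12b* are shown because their promoters are nearly alike and their levels are not, and *Cyp4a14* and *Cyp4a10* because their levels in LP and NP males did not overlap. Each run holds the 250 bases before the start of the canonical transcript, which for *Cyp4a12b* lies 1 base inside the gene's annotated span, from 5' to 3' on the strand of the gene. The *Cyp4a12a* sequence, at chr4:115155993-115156242 on the plus strand, is in lower case throughout.
Cyp4a12a: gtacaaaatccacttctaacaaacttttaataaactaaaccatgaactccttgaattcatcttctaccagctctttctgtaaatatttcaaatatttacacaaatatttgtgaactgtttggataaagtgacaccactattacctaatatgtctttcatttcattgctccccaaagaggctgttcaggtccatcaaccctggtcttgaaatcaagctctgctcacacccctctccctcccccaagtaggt
In the *Cyp4a12b* sequence, at chr4:115268571-115268820 on the plus strand, capitals mark the 6 bases that differ from *Cyp4a12a* and the 1 that was inserted. The annotated start of *Cyp4a12b* is placed further downstream, so its last 23 bases have no counterpart above.
Cyp4a12b: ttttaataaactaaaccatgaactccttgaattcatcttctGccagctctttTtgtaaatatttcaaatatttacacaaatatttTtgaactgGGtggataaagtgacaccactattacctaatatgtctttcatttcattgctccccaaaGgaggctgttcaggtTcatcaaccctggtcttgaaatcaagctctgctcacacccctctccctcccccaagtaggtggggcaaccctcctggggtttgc
In the *Cyp4a14* sequence, at chr4:115353345-115353594 on the minus strand, capitals mark AGGTCA, the core site bound by many nuclear receptors, which begins 87 bases before the start.
Cyp4a14: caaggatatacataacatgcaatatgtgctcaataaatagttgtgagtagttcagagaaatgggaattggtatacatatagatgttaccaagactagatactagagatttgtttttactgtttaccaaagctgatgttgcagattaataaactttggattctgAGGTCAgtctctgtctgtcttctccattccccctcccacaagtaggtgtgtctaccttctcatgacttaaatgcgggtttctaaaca
In the *Cyp4a10* sequence, at chr4:115375211-115375460 on the plus strand, capitals mark AGAACA, a core site shared by the androgen and glucocorticoid receptors, which lies on the other strand and so reads TGTTCT here, at 2 places.
Cyp4a10: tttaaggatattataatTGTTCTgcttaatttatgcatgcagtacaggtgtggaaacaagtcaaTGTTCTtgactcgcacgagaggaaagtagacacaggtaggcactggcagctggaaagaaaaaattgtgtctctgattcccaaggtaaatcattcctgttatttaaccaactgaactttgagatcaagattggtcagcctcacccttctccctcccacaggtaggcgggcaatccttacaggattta

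The *Cyp4a12a* and *Cyp4a12b* promoters were 97.35% identical over 226 aligned bases. Promoters of *Cyp4a10*, *Cyp4a31*, and *Cyp4a32* were between 88.27% and 92.09% identical to each other. On both strands, AGGTCA was found in 1 of the 7 promoters, that of *Cyp4a14*, and in 13.1% of 21710 promoters of protein-coding genes. AGAACA was found in 4 of the 7 (*Cyp4a10*, *Cyp4a31*, *Cyp4a32*, and *Cyp4b1*) and in 14.3% of all promoters. TTCNNNGAA, a form bound by STAT5, was found in 2 of the 7 (*Cyp4a14* and *Cyp4b1*) and in 7.71% of all. TATAAA was found in 2 of the 7 (*Cyp4a31* and *Cyp4a32*) and in 11.9% of all. In these 7 promoters no match overlapped one of another motif. A match describes the letters only.

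Each library held 14050486 to 23562411 reads assigned to genes. Levels are given as CPM, which scales a count to the reads on genes in its library, within a gene, and per kilobase of the main transcript (RPKM) where genes are compared. Counts take in all annotated exons, which for *Cyp4b1* cover 7553 bp against 1893 bp in its main transcript. With all exons as the length its RPKM would be lower, so its place in the order depends on the length used. In every library the summed level of 18 proximal tubule markers was between 24045 and 34313 CPM, and the liver list and the adrenal cortex list summed to at most 188.7 CPM and 4.92 CPM. The adipocyte list varied more, between 16.6 and 225.6 CPM in males and between 18.7 and 491.4 CPM in females. The part of adjacent fat in the members' levels was not tested. LP female 1, LP female 2, and NP female 3 stood apart from the other 15 libraries in a clustering of the more abundant genes. Any gene that fell below 10 counts in a library was left out of it. In these 3 mice, the share of reads mapped to more than 1 place was 8.91%, 7.92%, and 12.6%, in that order. In the other libraries it was at most 7.78%. The same 3 mice had lower levels of interferon-stimulated and glucocorticoid-responsive genes. The members' differences and the list counts in comparisons with females are therefore also given without them. Libraries of females held 0 to 58 reads of 4 Y-linked genes, and NP female 3 held the most. Its 4.01 CPM compares with at least 120.1 CPM in any male.

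In males, *Cyp4b1* and *Cyp4a12a* dominated the family. *Cyp4b1* was between 1725 and 2942 RPKM in the 10 males, and by its median count it ranked 15th among all genes. *Cyp4a12a* was between 280 and 942 RPKM and ranked 64th. *Cyp4a10* (49.4 to 117.0 RPKM) and *Cyp4a31* (80.5 to 150.1 RPKM) followed and overlapped in both diet groups. *Cyp4a14*, *Cyp4a32*, and *Cyp4a12b* were the lowest. In LP males *Cyp4a14* was above *Cyp4a12b* in every mouse (5.98 to 13.9 against 1.58 to 3.34 RPKM), whereas in NP males *Cyp4a32*, *Cyp4a14*, and *Cyp4a12b* overlapped.

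In females, 4 genes shared the top of the order and 3 were nearly absent. *Cyp4a14* was between 163.4 and 275.5 RPKM, *Cyp4a10* between 150.6 and 302.1 RPKM, and *Cyp4b1* between 86.6 and 282.8 RPKM, and their ranges overlapped in both diet groups. *Cyp4a31* was next, with 103.8 to 193.3 RPKM. *Cyp4a12a* reached at most 6.85 RPKM, *Cyp4a32* at most 1.34 RPKM, and *Cyp4a12b* at most 0.867 RPKM.

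**Figure D1:**
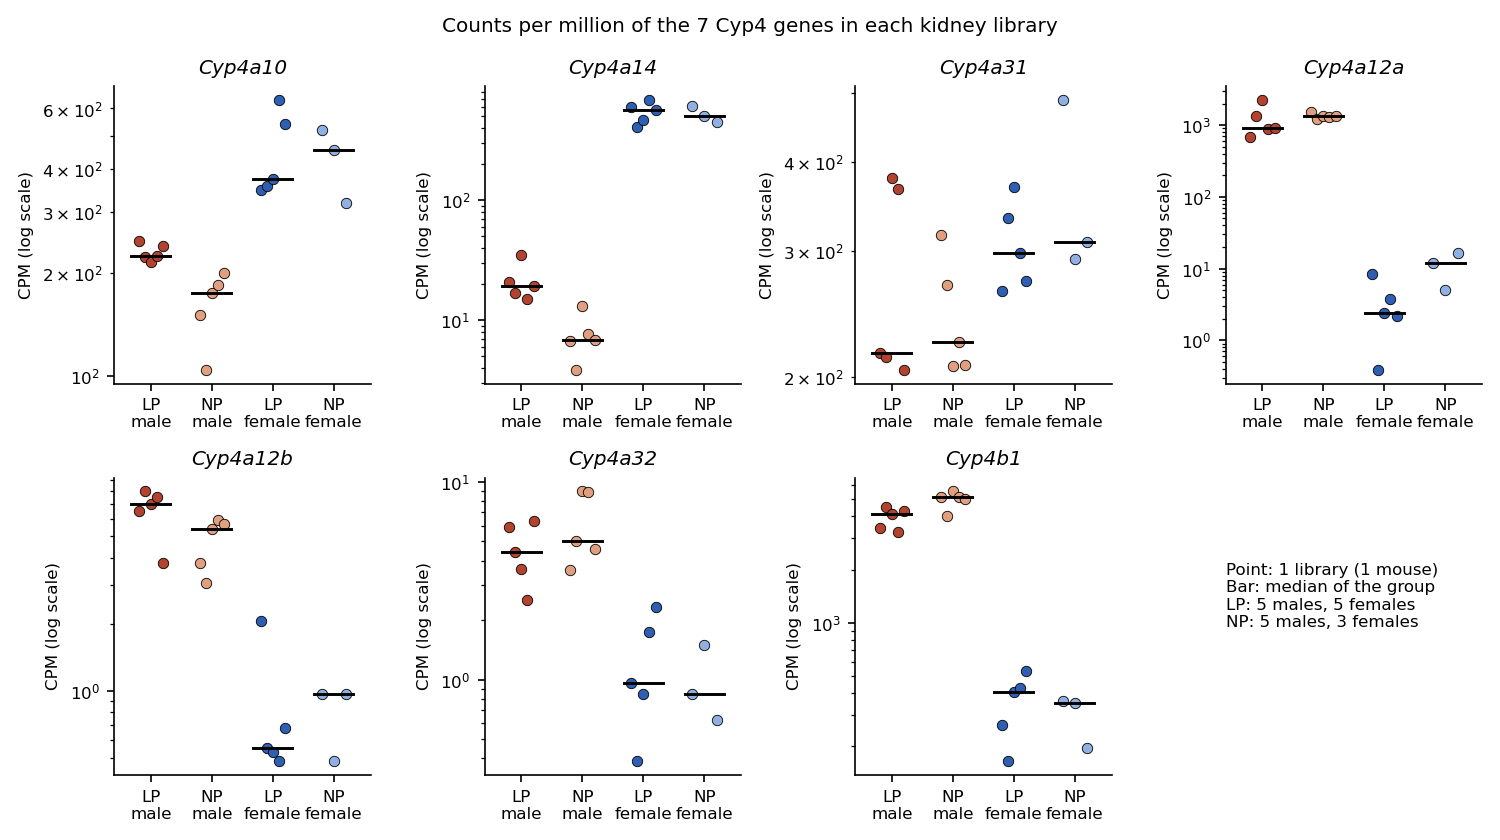
Each panel plots 1 gene, with CPM on a log scale, the 4 groups along the horizontal axis, 1 point per mouse, and a bar at the group median. *Cyp4a12a* and *Cyp4b1* are higher in every male than in any female, *Cyp4a14* and *Cyp4a10* are lower in every male than in any female, and the LP and NP males do not overlap for *Cyp4a14* and *Cyp4a10*.

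Within the Cyp4a genes the make-up differed by sex. *Cyp4a12a* made up a median of 74.5% of the summed Cyp4a RPKM in males (56.4% to 77.7%) and 0.307% in females (0.0342% to 1.495%). *Cyp4a14* made up a median of 37.6% in females (35.1% to 46.8%) and 0.805% in males (0.231% to 1.67%). *Cyp4a10* made up 36.0% in females and 12.5% in males, and *Cyp4a31* 24.1% and 13.1%. The summed Cyp4a level had medians of 725.9 RPKM in males (496.9 to 1212) and 523.5 RPKM in females (457.9 to 698.1), and the ranges overlapped. In NP males the *Cyp4a12a* share was between 74.3% and 76.0% in all 5 mice, and in LP males it ranged from 56.4% to 77.7%.

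**Figure D2:**
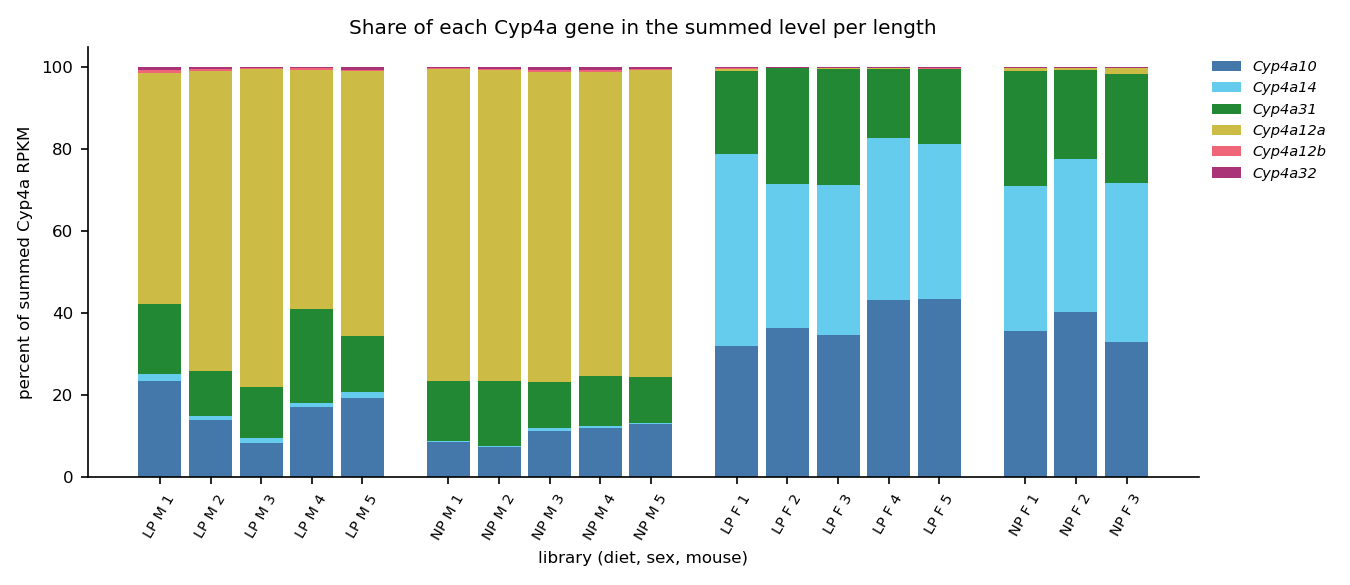
Stacked bars give the percent of the summed Cyp4a RPKM that each of 6 genes contributes in each of the 18 libraries, with diet, sex, and mouse number below. *Cyp4a12a* fills over 56% of every male bar, and *Cyp4a10*, *Cyp4a14*, and *Cyp4a31* together fill nearly all of every female bar.

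The sex comparison was made within each diet. Because males and females were collected at different times after the injection, a difference between them cannot be told apart from one of collection time. In the main test, with edgeR over genes that reached 10 counts in all libraries of the comparison, 4 of 5 members tested were called on the NP diet, where 13.3% of all genes tested were called, and 3 of 4 on the LP diet, where 12% were. The members that were not tested were *Cyp4a12b* and *Cyp4a32* on both diets and *Cyp4a12a* on the LP diet, because a female library had fewer than 10 counts. Among genes with a mean of at least 10 counts, 6 of 7 were called on each diet, beside 12.4% of genes on the NP diet and 11.8% on the LP diet. The same 6 genes had male and female CPM ranges that did not overlap, beside 24% of genes on the NP diet and 14.7% on the LP diet. These counts describe genes that were chosen with such values known.

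*Cyp4a12a*, the male-type arachidonic acid hydroxylase, had the widest gap. In NP males it was 1552, 1227, 1336, 1301, and 1326 CPM, and in NP females 11.97, 5.05, and 16.6 CPM. In LP males it was 679, 1344, 2280, 878, and 911 CPM, and in LP females 8.51, 0.386, 2.43, 3.78, and 2.16 CPM. All males were above all females. The log2 difference, male minus female, was 7.04 ± 0.44 (SE) on the NP diet and 8.63 ± 0.74 on the LP diet, the latter from genes with a mean of at least 10 counts.

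*Cyp4a12b*, its near copy, was also higher in every male, at a far lower level. It was between 3.09 and 8.01 CPM in males and between 0.481 and 2.08 CPM in females, or 8 to 41 counts in a female library. The log2 difference was 2.74 ± 0.40 on the NP diet and 3.07 ± 0.41 on the LP diet. In males the RPKM of *Cyp4a12a* was between 103.7 and 406.4 times that of *Cyp4a12b*, and in females between 0.692 and 16.95 times. Whether reads of *Cyp4a12a* were wrongly assigned to *Cyp4a12b* was not tested.

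*Cyp4b1* was between 3265 and 5568 CPM in the 10 males and between 164.0 and 535.4 CPM in the 8 females. The log2 difference was 4.21 ± 0.25 on the NP diet and 3.58 ± 0.32 on the LP diet. *Cyp4a32* was between 2.52 and 8.98 CPM in males and between 0.386 and 2.33 CPM in females, with log2 differences of 2.82 ± 0.45 and 1.97 ± 0.45. Reads on exons of both *Cyp4a32* and the far more abundant *Cyp4b1* were not counted for either, because the libraries do not mark the strand. Few reads were lost in this way. The columns that count each strand keep such reads. Their sum over 18 libraries was 1081 for *Cyp4a32*, against 1071 in the column used, and 805735 against 805498 for *Cyp4b1*. Whether reads of *Cyp4b1* were wrongly assigned to *Cyp4a32* was not tested.

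*Cyp4a14* went the other way. It was 613, 498, and 445 CPM in NP females and 602, 409, 465.9, 689, and 560 CPM in LP females, and between 3.86 and 34.8 CPM in males. The log2 difference, male minus female, was -5.93 ± 0.34 on the NP diet and -4.54 ± 0.28 on the LP diet. *Cyp4a10*, the neighbour transcribed in the opposite direction, ranged from 317.6 to 637.0 CPM over the females and from 104.2 to 246.8 CPM over the males, with log2 differences of -1.24 ± 0.22 and -0.86 ± 0.19. The ratio of *Cyp4a14* to *Cyp4a10* in RPKM was between 0.872 and 1.46 in females and between 0.0288 and 0.137 in males. *Cyp4a31* ranged from 204.3 to 380.7 CPM over the males and from 263.4 to 490.3 CPM over the females. Its ranges overlapped on both diets, with log2 differences of -0.42 ± 0.20 and -0.02 ± 0.20. Of the fits run, limma-voom alone called it on the NP diet, where that test called all 5 members tested and 21.8% of genes.

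**Figure D3:**
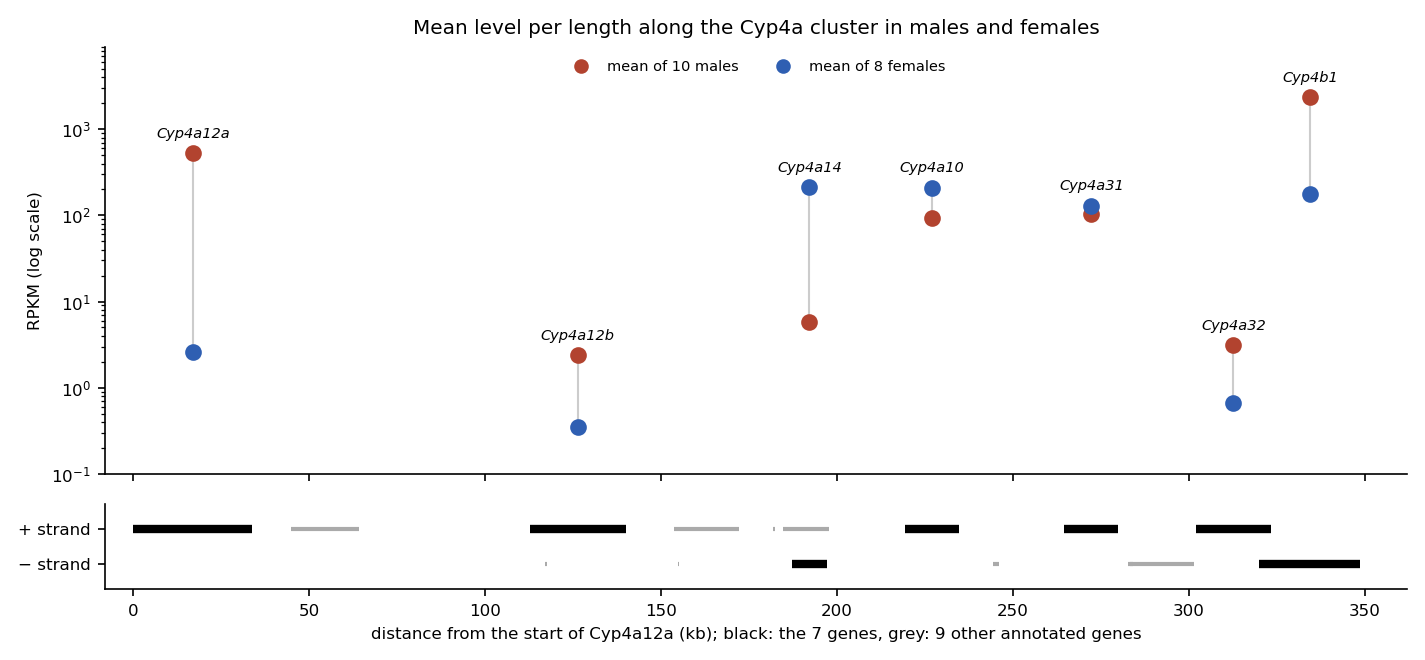
The upper panel gives the mean RPKM of 10 males and 8 females on a log scale at the midpoint of each of the 7 genes, against distance in kb, and the lower panel gives the extent of the 16 annotated genes by strand. Genes higher in males lie at both ends of the cluster, and *Cyp4a14* and *Cyp4a10*, which are lower in males, lie between them.

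Without LP female 1, LP female 2, and NP female 3, the same 6 members were called on both diets among genes with a mean of at least 10 counts. Of all genes in these fits, 1784 of 15343 were called on the NP diet and 2039 of 15606 on the LP diet. The log2 difference of *Cyp4a14* was then -5.97 ± 0.35 and -4.64 ± 0.29, that of *Cyp4a10* -1.37 ± 0.23 and -1.09 ± 0.15, and that of *Cyp4b1* 4.02 ± 0.21 and 3.20 ± 0.19, on the NP and LP diet respectively.

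The diet comparison asked whether the maternal diet left a difference in the kidneys of 6-wk-old offspring. In males, 0 of the 7 members were called by edgeR, where 0.0379% of 13181 genes were called (5 genes, all lower in LP males). DESeq2's Wald test called 1 of the 7, *Cyp4a14*, beside 0.114% of genes, and edgeR without a filter on low counts also called it, beside 0.0239% of genes. The CPM ranges of LP and NP males did not overlap for 2 of the 7 members, *Cyp4a14* and *Cyp4a10*, beside 0.673% of genes with a mean of at least 10 counts.

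*Cyp4a14* was 20.8, 16.9, 34.8, 14.96, and 19.2 CPM in LP males and 6.77, 3.86, 13.1, 7.77, and 6.82 CPM in NP males. The LP and NP males did not overlap, and the nearest values were 14.96 and 13.1 CPM. The log2 difference, LP minus NP, was 1.47 ± 0.31, or 2.76-fold, on 245 to 685 counts in LP males and 65 to 215 in NP males. Leaving out 1 male at a time gave log2 differences between 1.19 and 1.75. The highest LP male remained far below the lowest female, at 408.7 CPM.

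*Cyp4a10* was 247, 222, 214, 224, and 239 CPM in LP males and 151, 104, 174, 184, and 199 CPM in NP males. The groups again did not overlap, LP being the higher, and the LP males lay closer together than the NP males did. The log2 difference was 0.48 ± 0.15, or 1.39-fold, which is under the 1.5-fold threshold. As a share of summed Cyp4a RPKM, *Cyp4a14* was between 0.893% and 1.67% in LP males and between 0.231% and 0.716% in NP males.

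*Cyp4b1* was 3449, 4534, 4123, 3265, and 4277 CPM in LP males and 5159, 4031, 5568, 5178, and 5043 CPM in NP males. The groups overlapped through NP male 2, and the log2 difference was -0.36 ± 0.14. *Cyp4a12a* had a log2 difference of -0.15 ± 0.28, with the lowest and the highest male of all both in the LP group. *Cyp4a12b* had 0.44 ± 0.24, *Cyp4a31* 0.16 ± 0.20, and *Cyp4a32* -0.46 ± 0.31, and the LP and NP ranges of these 3 overlapped. In the same males the summed proximal tubule list overlapped between LP (27526 to 31341 CPM) and NP (26892 to 34313 CPM). The medullary collecting duct list was between 471 and 836 CPM in LP males and between 386 and 1139 CPM in NP males, and its part in these values was not tested. In bulk RNA, fewer cells of a type and less RNA per cell cannot be told apart.

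**Figure D4:**
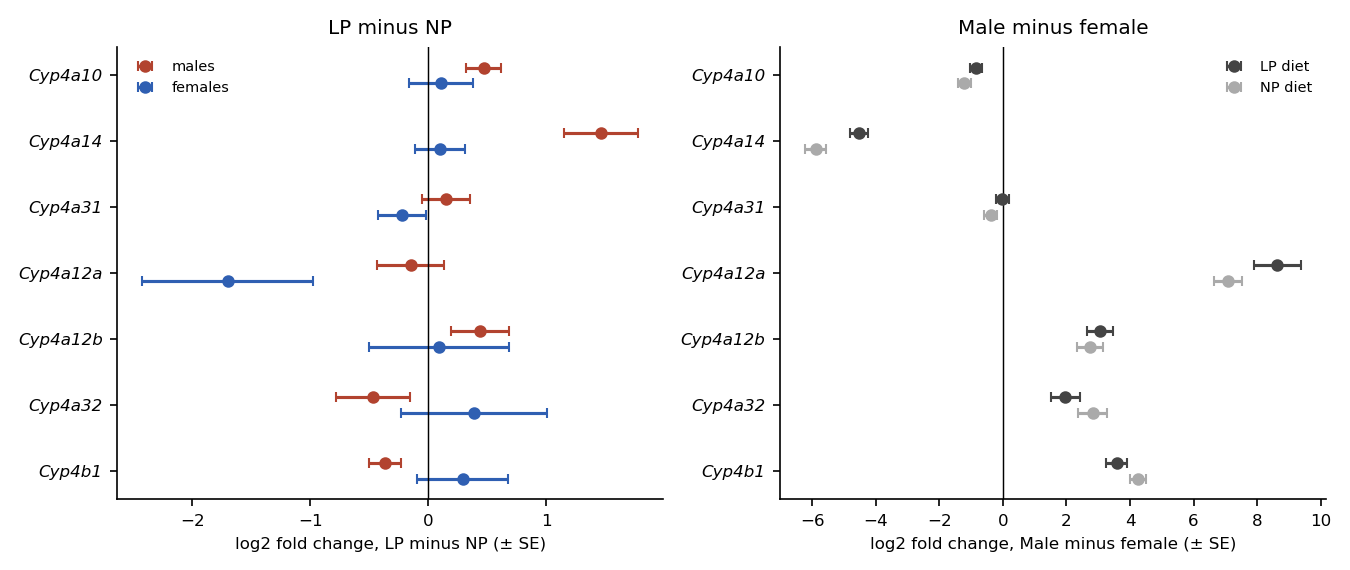
Points give the log2 difference of each of the 7 members among genes with a mean of at least 10 counts, with bars of 1 SE, for LP minus NP in males and females (left) and male minus female on each diet (right). The *Cyp4a14* point in males lies at 1.46 and that in females near 0, and the sex differences reach from -5.89 to 8.63.

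In females, 0 of the 4 members tested were called by edgeR, where 0% of 13510 genes were called, with 564 genes at an unadjusted p under 0.05. DESeq2's Wald test called 9 genes and 0 of the 4 members. The CPM ranges of LP and NP females did not overlap for 0 of the 7 members, beside 2.62% of genes. *Cyp4a14* had a log2 difference, LP minus NP, of 0.08 ± 0.21, *Cyp4a10* of 0.09 ± 0.27, *Cyp4a31* of -0.24 ± 0.20, and *Cyp4b1* of 0.27 ± 0.39. Among genes with a mean of at least 10 counts, *Cyp4a12a* had -1.70 ± 0.73, *Cyp4a12b* 0.09 ± 0.59, and *Cyp4a32* 0.39 ± 0.62. Without the 3 females that stood apart, *Cyp4a14* had 0.14 ± 0.22, *Cyp4a10* 0.19 ± 0.25, *Cyp4b1* 0.45 ± 0.17, and *Cyp4a12a* -1.51 ± 0.45, with 2 NP females left.

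The lower *Cyp4a12a* of LP females rested on few reads. LP females had 168, 7, 46, 63, and 51 counts, and NP females had 185, 84, and 240. As a percent of the male median, *Cyp4a12a* was 0.911%, 0.384%, and 1.26% in NP females and between 0.029% and 0.648% in LP females. The 4 Y-linked genes, which a female kidney should lack, were 0.711%, 0.544%, and 2.59% of the male median in NP females and between 0% and 0.360% in LP females. The order of the females by Y-linked reads was thus much like their order by *Cyp4a12a*, and the part of male RNA in these values was not tested. *Cyp4b1* was between 3.72% and 12.2% of the male median in the 8 females.

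The diet difference was set against sex in 1 model of all 4 groups. Of the 4 members tested, 0 were called for the interaction, where 0.0158% of genes were called. The LP minus NP log2 difference in males minus that in females was 1.395 ± 0.41 for *Cyp4a14*, 0.39 ± 0.30 for *Cyp4a10*, 0.40 ± 0.31 for *Cyp4a31*, and -0.63 ± 0.39 for *Cyp4b1*. For *Cyp4a14* the estimate stayed between 1.12 and 1.69 in 29 alternative fits.

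The other genes of the pathway were described from lists that were drawn up with earlier results of these data known. Between LP and NP males, 0 genes of any list below were called by edgeR. The median log2 difference was -0.03 over 28 PPARα targets tested, -0.10 over 20 genes of peroxisomal and dicarboxylic acid oxidation, 0.05 over 13 arachidonic acid partners, -0.06 over 19 regulators, and -0.09 over 7 other Cyp4 genes and P450 electron donors, beside 0.00 over all genes. Among PPARα targets, *Acadm*, an enzyme of mitochondrial fatty acid oxidation, had 0.11 ± 0.14. In females 0 genes of these lists were called either, and the PPARα targets had a median of 0.09, or 0.21 without the 3 females that stood apart.

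Between the sexes, several enzymes of the steps that follow omega-hydroxylation were higher in males. Of 20 genes of peroxisomal and dicarboxylic acid oxidation tested, 10 rose and 1 fell in males on the NP diet, and 9 rose and 1 fell on the LP diet. The median log2 difference was 0.61 and 0.47, beside -0.05 and -0.03 over all genes. Leaving out the 3 females that stood apart gave 10 higher and 1 lower on the NP diet, and 8 higher and 1 lower on the LP diet. Beside these list counts and those below, 13.3% of all genes tested were called on the NP diet and 12% on the LP diet. Without the 3 females, 1690 of 13229 genes were called on the NP diet and 1803 of 13394 on the LP diet. *Aldh3a2*, the fatty aldehyde dehydrogenase, had 1.67 ± 0.14 on the NP diet (edgeR, adjusted p = 9.56e-05), and *Adh1*, an alcohol dehydrogenase, had 3.02 ± 0.22 (adjusted p = 4.13e-05). *Amacr*, a racemase of branched-chain fatty acids, had 2.38 ± 0.20 (edgeR, adjusted p = 0.0001).

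PPARα targets went both ways between the sexes. Of 28 tested, 5 were higher and 6 lower in males on the NP diet, and 2 were higher and 3 lower on the LP diet, with medians of 0.07 and 0.06. Without the 3 females that stood apart, 4 were higher and 4 lower on the NP diet, and 1 was higher and 5 lower on the LP diet, with medians of 0.02 and -0.18. *Acaa2*, a thiolase of mitochondrial oxidation, had -1.51 ± 0.15 on the NP diet (edgeR, adjusted p = 0.000307).

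Among the arachidonic acid partners, 3 of 13 tested were higher and 0 lower in males on the NP diet, and 2 of 12 were higher and 1 lower on the LP diet. Without the 3 females that stood apart, 3 of 13 were higher and 2 lower on the NP diet, and the LP counts were again 2 and 1 of 12. *Cyp2j13*, an epoxygenase relative, had 6.89 ± 0.47 on the NP diet (edgeR, adjusted p = 3.48e-05). *Ephx2*, which hydrolyses the epoxides of arachidonic acid, had 1.90 ± 0.16 (adjusted p = 0.000103). *Ptgis*, the prostacyclin synthase, was the gene that was lower in males on the LP diet, with -1.07 ± 0.31 (edgeR, adjusted p = 0.0307). Of the other Cyp4 genes and electron donors, *Cyb5a*, which passes electrons to P450 enzymes, was higher in males on both diets, with 1.04 ± 0.19 and 1.07 ± 0.13 (edgeR, adjusted p = 0.0067 and 0.000293). *Cyp4f16*, of another subfamily, was lower in males on the NP diet, with -0.88 ± 0.25 (edgeR, adjusted p = 0.0431), and 0 of the 6 genes of its list that were tested were lower there without the 3 females.

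Of the regulators, 2 of 19 were higher and 1 lower in males on the NP diet, and 2 of 20 were higher and 1 lower on the LP diet. These counts were near the shares called among all genes tested, 13.3% and 12%. When the 3 females that stood apart were left out, 2 were higher and 2 lower on the NP diet, and 2 higher and 4 lower on the LP diet. *Prlr*, the prolactin receptor, had -5.64 ± 0.52 on the LP diet (edgeR, adjusted p = 3.64e-05), beside -4.54 ± 0.28 for *Cyp4a14* on the same diet. *Nr1h4*, the bile acid receptor, had 1.25 ± 0.15 on the NP diet and 0.96 ± 0.13 on the LP diet (edgeR, adjusted p = 0.000693 and 0.000475). *Esr1*, the oestrogen receptor, had 1.38 ± 0.17 and 1.43 ± 0.25 (edgeR, adjusted p = 0.00105 and 0.00246). *Cux2*, a transcription factor known from female liver, had -1.07 ± 0.26 on the NP diet (edgeR, adjusted p = 0.0249).

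Kidney genes listed for their known sex bias, with these data already known, were not compared with the members by a test. Of the male-biased genes, 12 of 15 tested were higher and 2 lower in males on the NP diet, and 10 of 14 tested were higher and 2 lower on the LP diet. *Acsm3* had 7.57 ± 0.26 and *Slco1a1*, an organic anion carrier, 7.15 ± 0.34 on the NP diet (edgeR, adjusted p = 1.04e-06 and 7.96e-06). Of the female-biased genes, 6 of 9 tested were lower and 1 higher in males on the NP diet, and 6 of 10 were lower and 2 higher on the LP diet. Without the 3 females that stood apart, 9 of 15 male-biased genes were higher and 2 lower on the NP diet and 10 of 14 were higher and 2 lower on the LP diet, while 5 of 9 and 7 of 10 female-biased genes were lower and 1 and 2 higher. *Slc22a29*, of the organic anion transporter family, had -4.93 ± 0.31, and *Kynu*, an enzyme of tryptophan breakdown, had -4.19 ± 0.51 on the NP diet (edgeR, adjusted p = 2.17e-05 and 0.000887). *Acy3*, an aminoacylase on the female-biased list, was higher in males instead, with 1.93 ± 0.21 on the LP diet (edgeR, adjusted p = 0.000112). With the sexes collected at different times, glucocorticoid-responsive genes were also lower in males in 4 of 8 tested on the NP diet and 1 of 7 on the LP diet. They were lower in 3 of 8 and 4 of 8 when the 3 females that stood apart were left out. Segment markers moved too: 3 of 7 medullary collecting duct genes and 2 of 8 thick ascending limb genes were lower in males on the NP diet, and 2 of 7 and 3 of 8 on the LP diet. These counts became 2 of 7 and 4 of 8 on the NP diet, and 3 of 7 and 6 of 8 on the LP diet, without the same 3 females. Their part in the sex differences of the 7 members was not tested.

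Across the 10 males, the level of each member was set against the mean log2(CPM + 1) of 29 PPARα targets. Of 7 relations, 0 had an adjusted p under 0.05, after Benjamini-Hochberg adjustment over 14 relations in both sexes. *Cyp4a14* had r = 0.33 and rho = 0.36 (two-sided permutation test, n = 10, p = 0.35 and 0.313, adjusted p = 0.613 and 0.566). *Cyp4a10* had r = 0.27 and rho = 0.32 (permutation test, p = 0.45 and 0.364, adjusted p = 0.69 and 0.566). Without the 2 mice farthest from the median of the list, NP male 3 and LP male 4, r was 0.44 for *Cyp4a14* and 0.30 for *Cyp4a10*, and with the diet group means subtracted it was 0.06 and 0.02. The females are not given as 1 correlation, because the 3 that stood apart formed a cluster of their own and the other 5 are too few.

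The females that stood apart were set against the other 5. The clustering that set them apart included *Cyp4b1*, *Cyp4a10*, *Cyp4a14*, and *Cyp4a31*. *Cyp4a12a*, *Cyp4a12b*, and *Cyp4a32* each fell below 10 counts in a library and were left out of it. Of genes with a mean of at least 10 counts, 22.5% did not overlap between the 3 females and the other 5. The 2 of 7 members that did not overlap either, *Cyp4b1* and *Cyp4a10*, are therefore a description only. *Cyp4b1* was 263, 164, and 195 CPM in LP female 1, LP female 2, and NP female 3, and between 353.8 and 535.4 CPM in the other 5. *Cyp4a10* was 347, 357, and 318 CPM in these 3 and between 375.1 and 637.0 CPM in the others. In the same 3 mice the glucocorticoid list summed to between 507 and 775 CPM against 1588 to 2083 CPM in the other females. The interferon list summed to between 151 and 226 CPM against 920 to 3421 CPM, and the proximal tubule list to between 24045 and 27105 CPM against 29135 to 33905 CPM. *Cyp4a14* and *Cyp4a31* overlapped between the 3 and the other 5. Whether any of these lists, or the higher share of reads mapped to more than 1 place, plays a part in the levels was not tested.

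**Figure D5:**
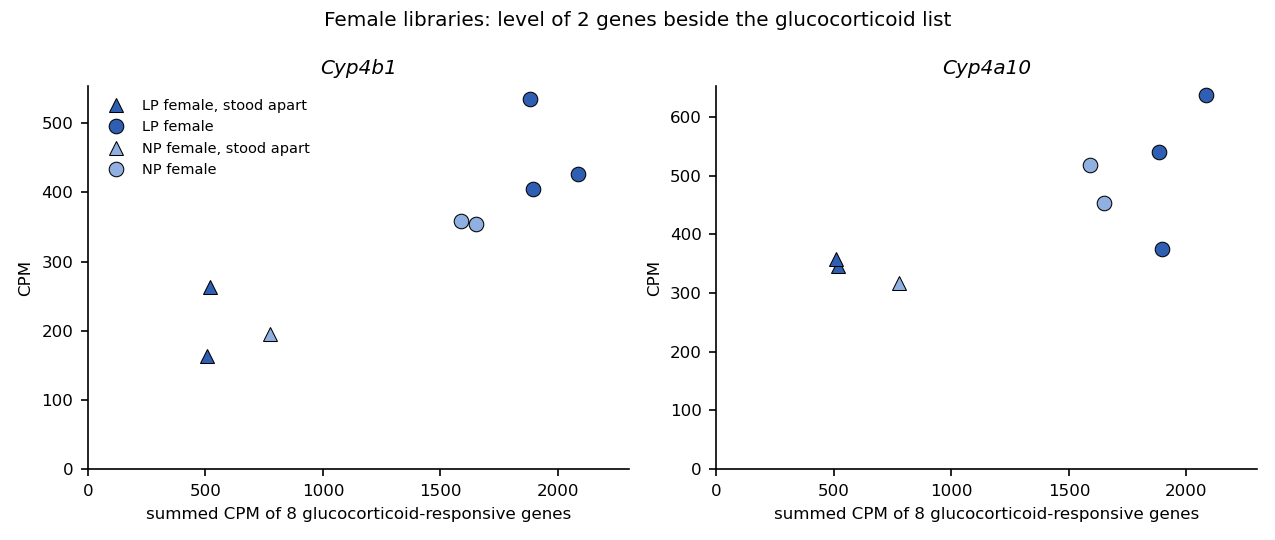
Each point is 1 female, with the summed CPM of 8 glucocorticoid-responsive genes on the horizontal axis and the CPM of *Cyp4b1* (left) or *Cyp4a10* (right) on the vertical axis. The 3 triangles are the mice that stood apart, and they lie below the other 5 on both axes, with *Cyp4b1* at 263 CPM or less.

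Genes with the most similar pattern were sought after the means of the 4 groups were subtracted from log2(CPM + 1) over 18 libraries, among 15678 genes. The correlations are descriptions across libraries that share depth and tissue makeup. *Cyp4b1* was nearest to *Cpe* (r = 0.92), which encodes a carboxypeptidase, *Nat2* (0.91), and *Fkbp5* (0.90), a glucocorticoid-induced chaperone. Without the 3 females that stood apart, these values were 0.815, 0.609, and 0.443. *Cyp4a10* was nearest to *Acot1* (r = 0.865), a PPARα target that encodes an acyl-CoA thioesterase, and then to *Alkal2* (0.84) and *Apom* (0.83), the last a lipoprotein component. Leaving out the 3 females gave 0.767 for *Acot1*, 0.817 for *Alkal2*, and 0.713 for *Apom*, so *Acot1* no longer came first of the 3. *Cyp4a12a* was nearest to *Gm7332* (0.85), *Slc22a6* (0.85), the organic anion transporter of the proximal tubule, and *Gm10643* (0.84). These were 0.60, 0.83, and 0.71 without the 3 females, so *Gm7332* no longer came first of the 3. *Cyp4a14* was nearest to *Rnf11* (0.81), *Gm71433* (0.79), and *Tm6sf2* (0.76).

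*Cyp4a12b* was nearest to *Zfp3* (0.81), *Glipr1* (0.78), and *Rcc1* (0.77), *Cyp4a31* to *Sycn* (0.75), *Gstm2-ps1* (0.74), and *Ftsj3* (0.74), and *Cyp4a32* to *Gm43682* (0.81), *Tpte* (0.80), and *Gm45184* (0.79). No member was among the 3 nearest genes of another. Between members the correlations ran from -0.62 for *Cyp4a31* with *Cyp4a32* to 0.67 for *Cyp4a10* with *Cyp4b1*. *Cyp4a14* and *Cyp4a10*, the pair that was higher in every LP male, had r = 0.52, and *Cyp4a12a* and *Cyp4a12b* had 0.53.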

How the data were processed

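Kidney RNA from 18 mice was selected with poly-T beads and sequenced from non-directional libraries. Reads were filtered by quality and trimmed of adapters by the authors, who mapped them with STAR (GRCm39, annotation GENCODE vM36) and deposited raw counts per gene of uniquely mapped reads. The column that ignores strand was used here, and 0 columns of samples were left unused. Reads not assigned to 1 gene (28.6% to 36.1%) were left out. Positions and sequences came from GRCm39 with GENCODE vM39, which held 78168 of the 78239 listed genes. The read length is not given in the sources used here. CPM is the count per 1e6 reads on genes in the library. RPKM is CPM per kilobase of the canonical transcript.

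The 7 genes and all gene lists were chosen with earlier results of these data known. Groups were compared by edgeR 4.0.16 (R 4.3.3) quasi-likelihood tests after TMM scaling, with p-values adjusted by Benjamini-Hochberg over the genes that reached 10 counts in all libraries of a comparison. A gene was called at an adjusted p under 0.05 and a difference of at least 1.5-fold. The SE given with an edgeR log2 difference is approximate: the size of the difference divided by the square root of the test's F value. There were 5 comparisons: diet in each sex, sex on each diet, and their interaction. Each library was 1 mouse, and the labels do not tie mice to litters, so p-values measure the spread between mice. The diet was given to dams, and mice of a diet group may be littermates. The spread between litters was not measured, so the SE of a diet difference may be too small. Named genes were the 7 members, up to 4 called genes of each list by adjusted p (or the 2 most abundant where fewer than 2 were called), and the 3 genes nearest to each member by correlation. From these, the text names a part, and some are not reported here. Alternatives were other filters, DESeq2 1.42.0, limma 3.58.1 with voom, another normalization, 1 model of all groups, a replicate block, both strand columns, and leaving out libraries. DESeq2 with a mean of at least 10 counts, and that filter without 3 females, were added after seeing the data. The fits were tested on simulated data. Python 3.11.15, scipy 1.17.1, and Biopython 1.88 were used for the rest.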

Additional observations from a re-analysis of the deposited data

Results flagged for a closer look

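*Cyp4a12b* in LP female 1 was 2.08 CPM, from 41 counts, whereas the other 4 LP females were between 0.481 and 0.679 CPM. Its gap to the nearest of them was 0.876 of the range of the group, above Dixon's critical value of 0.71 for 5 samples. Of 21 groups of values tested in this way, 1 passed, and chance passes about 1 in 20. LP female 1 also had the highest *Cyp4a12a* of the LP females, at 8.51 CPM, and it was 1 of the 3 females that stood apart.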

How the results depend on the processing

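Of 582 alternative values of the members' log2 differences, 578 moved by less than the spread between replicates. The 4 that moved were *Cyp4a10* (-0.28) and *Cyp4b1* (-0.23) between LP and NP females under the replicate block, and *Cyp4a12b* between the sexes on the LP diet (3.61) and for the interaction (0.69) with a mean of at least 10 counts and without the 3 females that stood apart. Members called in males went from 0 to 1 (*Cyp4a14*) with no filter, with the DESeq2 Wald test, and with that test at a mean of at least 10 counts. Members called between the sexes on the LP diet went from 3 to 6 with filterByExpr, with a mean of at least 10 counts (also by DESeq2 or without the 3 females), and with no filter, and to 5 without the 3 females, since more members were then tested. Over all genes, the diet in males called 5 genes, and 9 with no filter, 15 with DESeq2, 18 with DESeq2 at a mean of at least 10, and 1 in the model of all 4 groups. The diet in females called 0, and 3, 9, 12, and 2 in the same order, and 1 without the 3 females, with either filter. The sex difference on the NP diet called 1719, and 2830 with voom and 2672 with DESeq2 at a mean of at least 10. The interaction called 2, and 4 with DESeq2, 7 with DESeq2 at a mean of at least 10, 7 with voom, and 0 with both strand columns or without the 3 females, with either filter. The causes of these shifts in the counts over all genes were not tested.

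Leaving out 1 library at a time gave 2 to 6 genes for the diet in males, 0 to 2 in females, 1092 to 2594 and 1152 to 1623 for sex on the NP and LP diets, and 0 to 4 for the interaction. The highest values in females, for sex on the NP diet, and for the interaction came without NP female 2. Without NP male 1, 3, or 4, the sex difference on the NP diet called 1111, 1128, and 1092. The interaction called 0 without LP male 3 or NP female 3. Members called ranged from 4 to 5 for sex on the NP diet and from 3 to 5 on the LP diet, with 5 without LP female 2. With the replicate block the diet called 2 genes in males, the sex difference on the NP diet 363, and the interaction 0. The numbers did not pair the mice: the median correlation of same-numbered deviations was -0.13, -0.43, 0.12, and -0.02 for diet in males and females and sex on the NP and LP diets. Depth limits *Cyp4a12a*, *Cyp4a12b*, and *Cyp4a32* in females, where a library held as few as 7 counts.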

Other observations

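Of the genes between *Cyp4a12a* and *Cyp4b1* that are not described above, the pseudogene *Cyp4a30-ps* had the highest mean, 5.78 counts. Its mean level was 0.655 RPKM over the 10 males, and it had 0 counts in all 8 females.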
